A study of Mus musculus with 9 samples.

Results

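Mitochondrial ribosomal protein genes are the nuclear genes for the protein parts of the mitochondrial ribosome, or mitoribosome. Their mRNAs were followed in C2C12 cells, a mouse myoblast line, after transcription had been blocked. Probe sets were taken as members where their only annotated gene symbol begins with Mrpl or Mrps followed by a number; 1 gene of that form was not analysed here. This gave 84 of 35556 probe sets and 76 of 19938 genes with a single symbol. Of the 76 genes, 49 code for proteins of the large subunit and 26 for proteins of the small subunit. Mrps30 and Mrps18a belong to the large subunit in spite of their names. The remaining gene, Mrps36, was named as a ribosomal protein gene, but its product is now known as a part of the oxoglutarate dehydrogenase complex, and it was counted with neither subunit. For 74 members the mean log2 intensity over the 9 arrays reached 7.385, the median of all probe sets with 1 symbol, and these were tested among 9864 genes.

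The cells had received an siRNA against Cugbp1 (current symbol Celf1), an siRNA against Mbnl1 or a control siRNA. Both targets are RNA-binding proteins of the muscle cell that take part in splicing and in the fate of mRNAs. Actinomycin D at 5 ug/ml was then added in all 3 arms to stop transcription, and total RNA was taken at 0, 2.5 and 5 h. Each siRNA and time had 1 array, so there were no replicates, and the knockdowns rest on 1 siRNA arm each as labelled. Each comparison over time sets 3 arrays against 3, one from each arm, and each comparison of siRNAs sets 3 against 3, one from each time. Errors are standard errors (SE) of a limma fit with siRNA and time as factors, and p-values set an effect beside the scatter that siRNA and time leave unexplained between single arrays. Calls were made where the p, adjusted over the 9864 genes by the Benjamini-Hochberg method, was under 0.05.

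The siRNA targets were low in their own arms. Celf1 read 9.96, 9.57 and 9.52 log2 units at 0, 2.5 and 5 h under Cugbp1 siRNA, against 11.66, 11.74 and 11.73 under control siRNA. Mbnl1 read 10.24, 10.05 and 9.79 under Mbnl1 siRNA, against 12.43, 12.50 and 12.44 under control siRNA. Celf1 was also lower under Mbnl1 siRNA than under control siRNA, by a log2 difference of -0.59 ± 0.09 (adjusted p = 0.000931). Of 7 myoblast markers 6 passed the intensity filter (Myod1, Myf5, Cdh15, Des, Chrng and Pax7, but not Myog), as did 3 of 5 fibroblast, 1 of 5 macrophage and leukocyte and 1 of 5 adipocyte markers. Median intensity was 104.92 to 113.01 per array, and arrays correlated at 0.980 to 0.995.

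The mitoribosome translates the few mRNAs that mitochondrial DNA encodes, all of them for core subunits of the respiratory chain and the ATP synthase. Its ribosomal RNAs come from mitochondrial DNA, whereas all of its proteins are made in the cytosol from nuclear genes and imported. Many of these proteins have a counterpart in bacterial ribosomes, and others are found only in mitochondria. In mammals, transcription factors such as NRF1, the GABP complex (an ETS factor) and YY1 are known to bind promoters of genes for mitochondrial proteins.

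Core motifs of these factors were counted in the members' promoters. RefSeq windows on GRCm38.p6, from 250 bases before to 50 bases after a start of transcription, were found for 67 members (73 windows) and for 27025 genes in all (32851 windows). Both strands were searched, and shares are set beside the 21262 windows of protein-coding genes. The ETS core CGGAAGT stood in 17 member windows (23.3%), against 8.39% of protein-coding windows and 6.42% of all windows. The NRF1 core CGCATGCG, which reads alike on both strands, stood in 7 (9.59%), against 2.52% and 1.87%. The YY1 core AAGATGGCG stood in 7 (9.59%), against 1.83% and 1.4%. The GC box GGGCGG was in 53.4% of member windows, 46.2% of protein-coding windows and 35.7% of all windows. The E-box CACGTG was in 8.22% of member windows and 7.84% of protein-coding windows, the cyclic AMP element TGACGTCA in 2.74% and 2.23%, and TATAAA in 6.85% and 12.6%. At least 1 of the NRF1, ETS and YY1 cores was found for 28 of 67 members (41.8%) and for 13.3% of 17491 protein-coding genes. These are counts of letters in a window and show no binding.

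Promoters of 4 members are shown to give an example of each core and of both directions after actinomycin D. The levels of Mrps22 and Mrps18b fell and those of Mrpl52 and Mrpl42 rose. Each is given 5′ to 3′ on the strand of its gene, with motif matches in capitals. Mrps22 (chr9:98601630-98601929, minus strand) holds a GC box and then an ETS core, Mrps18b (chr17:35916391-35916690, minus strand) an NRF1 core and 2 GC boxes, Mrpl52 (chr14:54426659-54426958, plus strand) 2 ETS cores, and Mrpl42 (chr10:95501900-95502199, minus strand) a GC box and, after the start of transcription, a YY1 core.
Mrps22: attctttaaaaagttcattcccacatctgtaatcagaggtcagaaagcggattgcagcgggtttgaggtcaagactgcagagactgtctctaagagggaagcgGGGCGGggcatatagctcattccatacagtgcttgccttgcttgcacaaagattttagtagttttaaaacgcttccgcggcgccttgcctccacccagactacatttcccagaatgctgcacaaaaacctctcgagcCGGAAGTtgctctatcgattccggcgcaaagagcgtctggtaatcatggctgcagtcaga
Mrps18b: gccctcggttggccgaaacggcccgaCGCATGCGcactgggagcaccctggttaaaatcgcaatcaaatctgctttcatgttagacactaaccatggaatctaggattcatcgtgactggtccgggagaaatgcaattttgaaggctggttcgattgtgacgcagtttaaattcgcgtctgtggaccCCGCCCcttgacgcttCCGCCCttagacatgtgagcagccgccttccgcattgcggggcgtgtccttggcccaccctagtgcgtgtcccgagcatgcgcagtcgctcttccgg
Mrpl52: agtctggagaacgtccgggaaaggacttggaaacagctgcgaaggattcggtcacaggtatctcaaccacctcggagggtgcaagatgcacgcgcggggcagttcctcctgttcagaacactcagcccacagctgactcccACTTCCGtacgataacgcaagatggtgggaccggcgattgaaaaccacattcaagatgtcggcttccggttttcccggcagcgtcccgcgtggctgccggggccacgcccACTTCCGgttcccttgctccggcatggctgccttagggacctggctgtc
Mrpl42: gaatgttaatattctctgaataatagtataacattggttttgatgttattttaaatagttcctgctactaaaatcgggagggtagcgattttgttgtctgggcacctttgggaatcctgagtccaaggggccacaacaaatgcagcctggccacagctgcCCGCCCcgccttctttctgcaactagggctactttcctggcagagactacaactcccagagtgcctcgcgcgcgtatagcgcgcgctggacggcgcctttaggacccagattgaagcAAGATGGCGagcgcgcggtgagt
Both Mrps22 and Mrpl52 hold the ETS core, on opposite strands. Among members with a window, 1 or more of the NRF1, ETS and YY1 cores was found for 9 of 24 that were higher at 5 h, 8 of 15 that were lower and 11 of 26 that were not called. The NRF1 core alone stood in 0 of 28 windows of members that were higher, 2 of 15 windows of members that were lower and 5 of 28 windows of members that were not called.

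Members often began head to head with another gene. A start of another protein-coding gene on the opposite strand lay within 1000 bases upstream for 24 of 67 members (35.8%), against 8.48% of 17491 protein-coding genes. Mrpl46 and Mrps11 face each other across 42 bases. Counted once, there were 20 pairs with both genes tested at 5 h. Both were called in the same direction in 5 pairs and in opposite directions in 4, while 1 gene alone was called in 7 pairs and neither in 4. Of all genes tested 35.6% were higher and 32.8% lower at 5 h. Calls in head-to-head pairs of other genes were not counted, and a link between neighbours was not tested. The opposite pairs were Mrpl21 with Ighmbp2, Mrpl27 with Eme1 (0.13 and -0.59), Mrpl32 with Psma2, and Mrpl47 with Ndufb5 (-0.25 and 0.37). The second probe set of Mrpl47 gave 0.35, in the direction of Ndufb5. The log2 difference was -0.41 for Mrpl46, which was called, and 0.06 for Mrps11, which was not. Mrpl43 fell by 0.48 on the log2 scale beside Twnk, the gene of the mitochondrial DNA helicase, at -0.68 (adjusted p = 2.57e-05). Ppp1r10, whose start faces that of Mrps18b, had a log2 difference of -2.46 (adjusted p = 6.34e-07), against -0.40 for Mrps18b.

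After 5 h of actinomycin D the members had separated, and the same gene family held mRNAs that fell and mRNAs that rose, in each case relative to the rest of the array. Of the 74 tested members 28 were higher at 5 h than at 0 h (37.8%) and 19 were lower (25.7%), where 35.6% of all genes tested were higher and 32.8% lower. The members' median log2 difference was 0.06, against 0.04 over all genes, and single members ran between -0.84 and 0.47. RMA brings all arrays to 1 distribution, so a rise means a smaller loss than that of the average transcript and gives no absolute amount. When each array was instead shifted so that cytosolic ribosomal protein genes had the same median on each array, the median of all genes moved by -0.23 at 5 h. On that scale 6 members were higher (8.1%) and 44 lower (59.5%), with a median of -0.17, where 3.50% of all genes were higher and 60.0% lower. The share of members that were lower there is close to that of all genes. All 19 members called lower as deposited were lower there too. Of the 28 called higher, 6 stayed higher, 21 were not called and 1 (Mrpl48) was lower. In bulk RNA, a relative fall of an mRNA cannot be split here into fewer cells that hold it and less of it per cell.

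**Figure D1:**
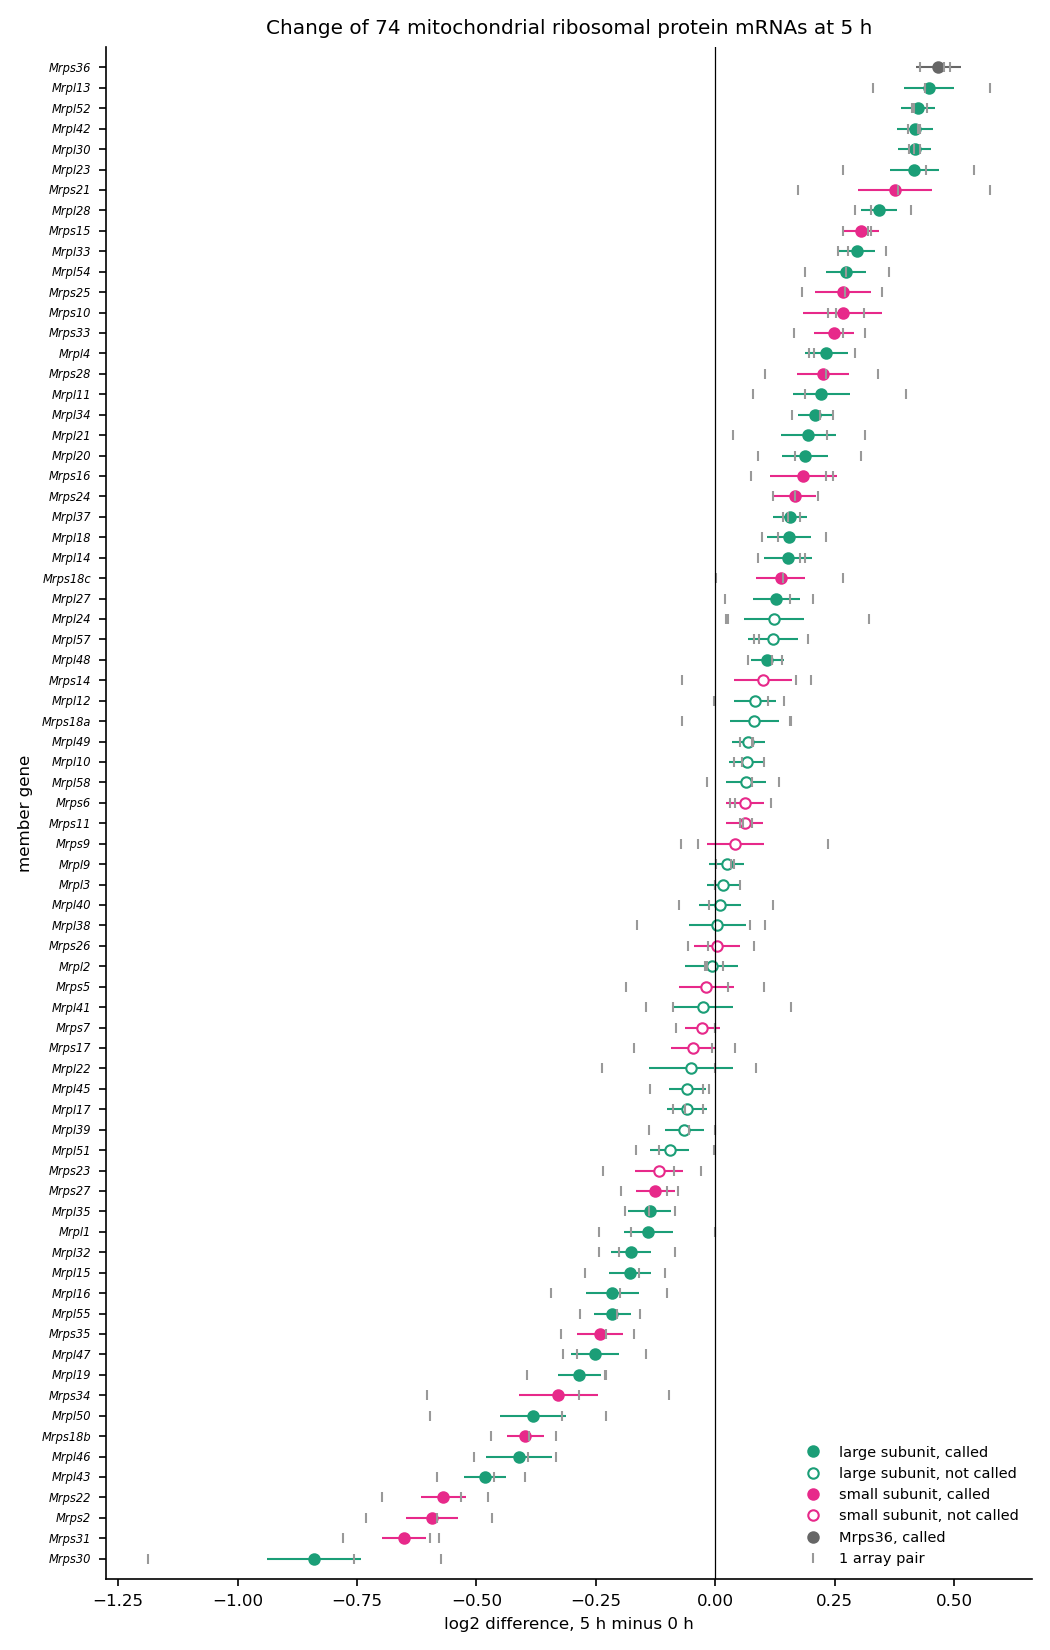
Log2 difference between 5 h and 0 h for the 74 tested members, ordered by size, with the SE of the fit as bars (n = 3 arrays at each time), filled points for called members and grey ticks for the 3 array pairs. Green marks the large subunit and pink the small subunit. The points run between -0.84 for Mrps30 and 0.47 for Mrps36, and both subunits appear among the rises and the falls.

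The largest fall was that of Mrps30, a large-subunit protein found only in mitochondria. Under Cugbp1 siRNA its level was 8.57 log2 units at 0 h and 8.22 at 2.5 h, and the 5 h array differed from the 0 h array by -0.57. The levels at 0, 2.5 and 5 h were 8.05, 7.42 and 6.87 under Mbnl1 siRNA, and 8.41, 8.03 and 7.65 under control siRNA. It declined at each step in every arm, and the 5 h arrays lay below all 0 h arrays. The log2 difference at 5 h was -0.84 ± 0.10 (adjusted p = 0.000153), a 1.79-fold lower level. Mrps31, a small-subunit protein found only in mitochondria, read 8.83, 8.50 and 8.24 under Cugbp1 siRNA, 9.03, 8.68 and 8.46 under Mbnl1 siRNA, and 8.82, 8.41 and 8.04 under control siRNA. Again the 3 arrays of 5 h lay below those of 0 h, and the log2 difference was -0.65 ± 0.05 (adjusted p = 9.31e-06).

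Mrps2 and Mrps22 are small-subunit proteins, the first with a bacterial counterpart and the second without one. Mrps2 had log2 levels of 9.36, 9.35 and 9.33 at 5 h in the Cugbp1, Mbnl1 and control arms, against 10.09, 9.94 and 9.80 at 0 h. The arms that stood apart at 0 h had nearly the same level at 5 h, and the log2 difference was -0.59 ± 0.05 (adjusted p = 4.09e-05). Mrps22 had 9.32, 9.01 and 8.92 at 5 h, against 9.80, 9.54 and 9.62 at 0 h, a log2 difference of -0.57 ± 0.05 (adjusted p = 2.37e-05). No 5 h array of either gene reached a 0 h array. The other falls among the 8 largest were those of Mrpl43 (-0.48 ± 0.04), Mrpl46 (-0.41 ± 0.07) and Mrpl50 (-0.38 ± 0.07), which are large-subunit proteins without a bacterial counterpart, and of the small-subunit protein Mrps18b (-0.40 ± 0.04). Their 5 h levels lay below their 0 h levels with no overlap.

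Among the members that rose, Mrpl13 is a large-subunit protein of bacterial descent. Its log2 level was 9.77, 10.07 and 10.35 at 0, 2.5 and 5 h under Cugbp1 siRNA, 9.60, 9.83 and 10.04 under Mbnl1 siRNA, and 9.70, 9.99 and 10.03 under control siRNA. The log2 difference at 5 h was 0.45 ± 0.05 (adjusted p = 0.000174), and the Cugbp1 arm showed the largest rise of the 3 arms. Mrpl52, a large-subunit protein of mitochondria alone, read 10.17, 10.43 and 10.58 under Cugbp1 siRNA, 10.29, 10.63 and 10.74 under Mbnl1 siRNA, and 10.16, 10.51 and 10.57 under control siRNA. It gained 0.41 to 0.44 in each arm by 5 h, with a log2 difference of 0.42 ± 0.04 (adjusted p = 2.54e-05).

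Mrpl42 and Mrpl30, 2 more large-subunit proteins, rose by nearly equal amounts in the 3 arms although their starting levels differed. Mrpl42 read 9.72, 9.31 and 9.69 at 5 h in the Cugbp1, Mbnl1 and control arms, against 9.32, 8.88 and 9.26 at 0 h. Its log2 difference was 0.42 ± 0.04 (adjusted p = 3.73e-05), and groups overlapped only because the whole Mbnl1 arm was low. Mrpl30 read 9.89, 9.48 and 9.88 at 5 h, against 9.48, 9.05 and 9.48 at 0 h, a log2 difference of 0.42 ± 0.03 (adjusted p = 2.15e-05). The remaining rises among the 8 largest were those of Mrps36 (0.47 ± 0.05), Mrpl23 (0.42 ± 0.05), the small-subunit protein Mrps21 (0.38 ± 0.08) and Mrpl28 (0.34 ± 0.04). Mrps21 differed most between arms, with 0.57 in the control arm, 0.38 in the Cugbp1 arm and 0.17 in the Mbnl1 arm. With cytosolic ribosomal protein medians set equal, Mrps36, Mrpl13, Mrpl52, Mrpl42, Mrpl30 and Mrpl23 stayed higher at log2 differences of 0.19 to 0.24, while Mrps21 (0.15, adjusted p = 0.176) and Mrpl28 (0.11, adjusted p = 0.0692) were not called.

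**Figure D2:**
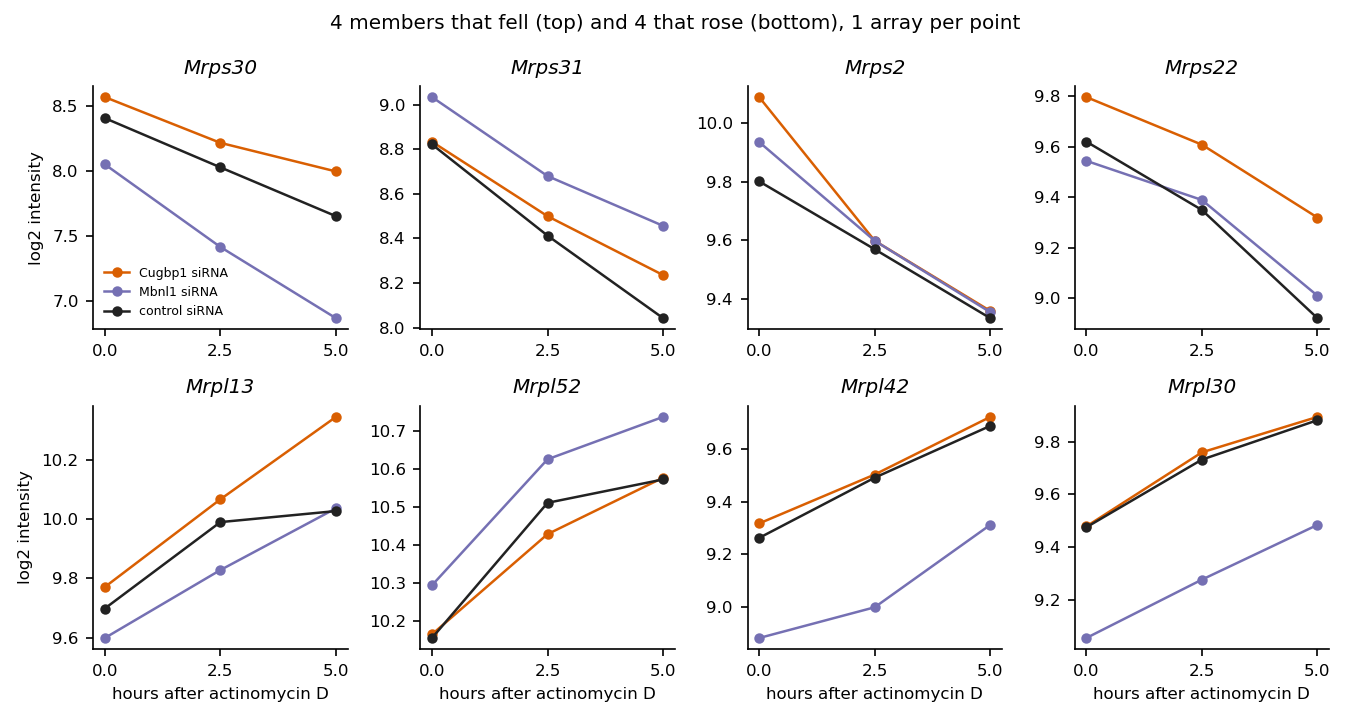
Log2 intensity at 0, 2.5 and 5 h after actinomycin D for 4 members that fell (Mrps30, Mrps31, Mrps2, Mrps22) and 4 that rose (Mrpl13, Mrpl52, Mrpl42, Mrpl30), with 1 array per point and 1 line per siRNA. Each line moves 1 way at both steps, and the Mbnl1 line lies lowest for Mrps30, Mrpl42 and Mrpl30.

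Both subunits held members of either direction at 5 h. In the large subunit 18 of 48 members were higher and 12 lower, and in the small subunit 9 of 25 were higher and 7 lower. Over all genes tested 35.6% were higher and 32.8% lower, and the share called higher in each subunit was close to that of all genes. Within the small subunit, 6 of 14 members with a bacterial counterpart were higher (42.9%) and 1 (Mrps2) was lower (7.1%), with a median of 0.08. Of the 9 small-subunit members found only in mitochondria 2 (Mrps25 and Mrps33, 22.2%) were higher. In the same class 5 (Mrps31, Mrps22, Mrps34, Mrps35 and Mrps27, 55.6%) were lower, and the median was -0.13. In the large subunit, 13 of 28 members of bacterial descent were higher and 7 lower (median 0.10), and 5 of 17 of the mitochondrial kind were higher and 4 lower (median 0.00). No difference between these classes was tested. The 2 members below the intensity filter, Mrpl44 and Mrps12, are named after their values were seen. In a fit without the filter Mrpl44, a large-subunit protein, had a log2 difference of -0.61 ± 0.09 at 5 h (adjusted p = 0.00152), and Mrps12, which lies at the decoding site, had 0.23 ± 0.09 (adjusted p = 0.0752).

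At 2.5 h fewer members had moved far enough to be called. There were 18 higher and 9 lower than at 0 h, against a background of 23.1% of all genes higher and 24.2% lower. Their median was 0.06, and that of all genes 0.03. With equal cytosolic ribosomal protein medians these counts were 3 (4.1%) and 19 (25.7%), where 2.15% of all genes were higher and 36.8% lower. The members' median was then -0.07, and the median of all genes moved by -0.12. As deposited, 11 were higher without the 2.5 h array of the control arm, and 5 were lower without that of the Cugbp1 arm. The largest falls were those of Mrps30 (-0.46 ± 0.10), Mrps31 (-0.37 ± 0.05) and Mrps2 (-0.35 ± 0.05), and the largest rises those of Mrpl52 (0.32 ± 0.04), Mrps21 (0.29 ± 0.08) and Mrps15 (0.28 ± 0.04), a small-subunit protein. Mrps21 read 11.89 at 2.5 h against 11.37 at 0 h under control siRNA, 11.66 against 11.48 under Cugbp1 siRNA and 11.70 against 11.53 under Mbnl1 siRNA. Its call was lost without the 2.5 h array of the control arm (adjusted p = 0.0891) or of the Mbnl1 arm (adjusted p = 0.0537). With equal cytosolic ribosomal protein medians Mrps21 was not called either (0.17, adjusted p = 0.172). Across both intervals and all 3 arms, 12 members declined at each step, among them Mrpl15, Mrpl19, Mrpl47 and Mrps35 besides the 8 largest falls. There were 16 that increased at each step. Genes moving the same way at each step were not counted over all genes tested, so these counts have no background beside them. Both time comparisons share the 0 h arrays.

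Some members were read by more than 1 probe set. For Mrpl23, Mrps33, Mrps36 and Mrps5 the 2 probe sets moved together. The mean difference at 5 h was 0.42 and 0.42 for Mrpl23, 0.25 and 0.27 for Mrps33, 0.47 and 0.54 for Mrps36, and -0.02 and 0.00 for Mrps5. Mrpl27 had 0.13 and 0.23, and Mrpl41 had -0.02 and 0.02. For Mrpl47, a large-subunit protein of bacterial descent, the 2 probe sets disagreed. The brighter one, which was used, had -0.25 and the other 0.35, and neither range over the 3 pairs crossed 0. The fall of Mrpl47 is therefore uncertain. The probe sets of Mrpl51 had -0.10 and -0.15 at 5 h but differed under Cugbp1 siRNA, at -0.04 for the brighter one and -0.45 for the other.

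Other genes that serve the mitoribosome were set beside the members in lists of known function. At 5 h 35.6% of all genes tested were higher and 32.8% lower. Nuclear-encoded respiratory chain subunits, many of which assemble with the products of the mitoribosome, had 66 of 74 higher and 0 lower at 5 h by limma, and even the lowest log2 difference was 0.03 (median 0.26). Their interquartile range of log2 differences was 0.19, against 0.32 for the members. Atp5k (0.48 ± 0.06) and Ndufc1 (0.48 ± 0.04), subunits of the ATP synthase and of complex I, rose most. Of 54 cytosolic ribosomal protein genes 44 were higher and 1 lower (median 0.18, interquartile range 0.13). Rps21 rose by 0.50 ± 0.05, and the exception was Rpl12 at -1.74 ± 0.13. After equal cytosolic medians the respiratory chain list had 20 higher and 8 lower, and the cytosolic list, whose median that scaling sets, 5 higher and 7 lower.

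Genes that build the mitoribosome and make its RNA held larger falls. Of 23 genes for assembly and ribosomal RNA modification 3 were higher and 14 lower at 5 h (median -0.21). The largest falls were those of Mterf3, which takes part in ribosome assembly and mitochondrial transcription (-1.49 ± 0.06, adjusted p = 4.6e-07), and of the rRNA methyltransferase Mrm3 (-0.75 ± 0.07). Among 19 genes for mitochondrial transcription and RNA processing 1 was higher and 11 lower (median -0.35). Tefm, the elongation factor of mitochondrial transcription, had -1.78 ± 0.04 and Trmt10c, a subunit of mitochondrial RNase P, -1.46 ± 0.13. Of 14 regulators of nuclear genes for mitochondria 0 were higher and 9 lower by limma (median -0.21), with Myc at -2.37 ± 0.10 and the coactivator gene Pprc1 at -1.57 ± 0.07. The 2.5 h levels of Myc and Pprc1 were already lower, at -2.44 ± 0.10 and -1.13 ± 0.07.

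Genes for mitochondrial translation factors and their partners went both ways, with 7 of 15 higher and 5 lower at 5 h (median 0.04). Of all genes tested 35.6% were higher and 32.8% lower. The initiation factor gene Mtif3 had -1.08 ± 0.05 and Mtfmt, which formylates the initiator methionine tRNA, -0.99 ± 0.05, whereas 3 genes picked after their values were seen, the elongation and recycling factor genes Gfm2 (0.34 ± 0.05), Mrrf (0.21 ± 0.04) and Tufm (0.17 ± 0.04) rose. Of 18 genes for mitochondrial tRNA charging 8 were higher and 4 lower (median 0.05), with Qrsl1, part of the glutaminyl-tRNA amidotransferase, at -0.72 ± 0.04 and the methionyl-tRNA synthetase gene Mars2 at -0.50 ± 0.07. A list of 4 mitoribosomal proteins with other symbols and the insertase gene Oxa1l had 3 higher and 2 lower. In it Chchd1, of the small subunit, rose by 0.37 ± 0.05 and Gadd45gip1, of the large subunit, fell by 0.48 on the log2 scale (SE 0.07). With equal cytosolic medians, 21 of the 23 assembly genes, 17 of the 19 transcription and processing genes and 14 of the 14 regulators were lower, where 60.0% of all genes were.

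**Figure D3:**
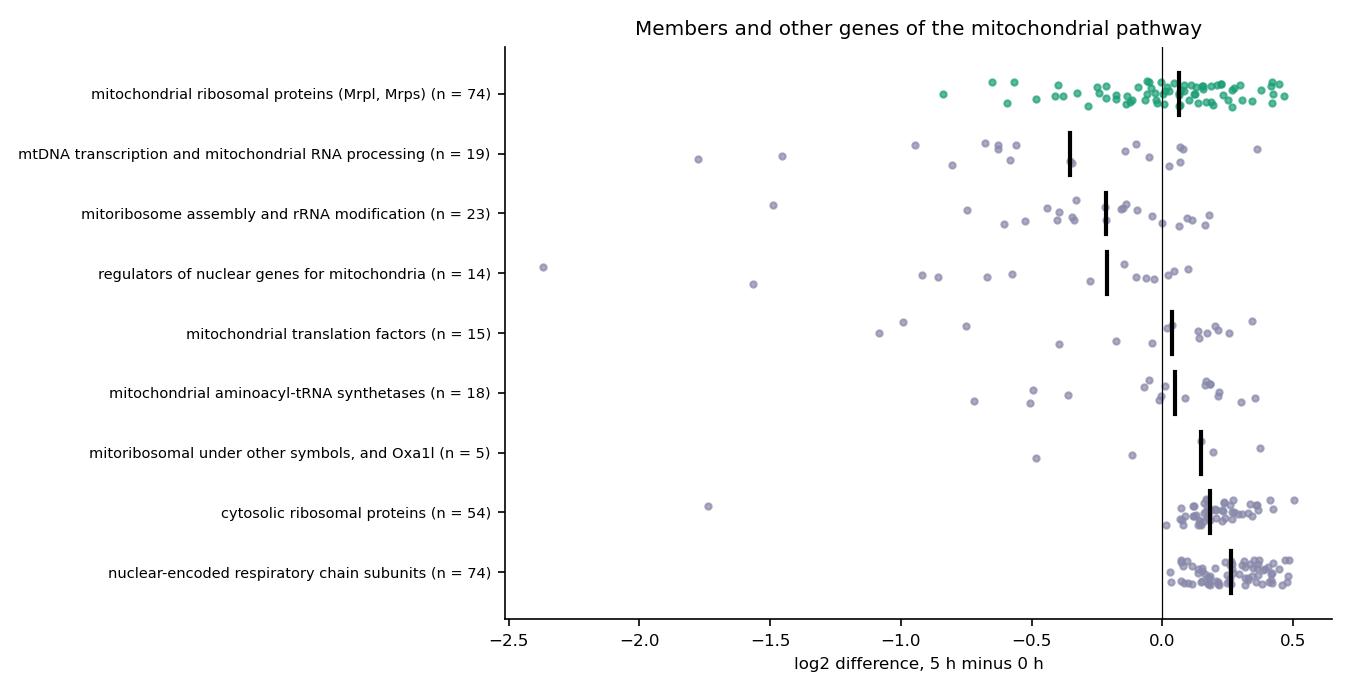
Log2 difference between 5 h and 0 h for each tested gene of the members (green) and of 8 lists of related function, with a black bar at each median. The members spread between -0.84 and 0.47, while 74 respiratory chain genes lie between 0.03 and 0.48 and genes for mitochondrial transcription and RNA processing reach -1.78.

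Mbnl1 siRNA changed the level of members in both directions. Compared with control siRNA, 16 of 74 members were higher and 17 lower, where 24.0% of all genes tested were higher and 31.0% lower. The members' median log2 difference was 0.02, against -0.02 over all genes. The count of 16 depended on single arrays and on the filter, since 6 were higher without the 5 h array of the control arm, 9 without its 2.5 h array, 8 and 10 without the 5 h and 2.5 h arrays of the Mbnl1 arm, and 9 without the intensity filter. Of the 26 tested members found only in mitochondria, 10 were lower (38.5%) and 7 higher (26.9%). Of the 42 with a bacterial counterpart, 6 were lower (14.3%) and 8 higher (19.0%). No difference between these classes was tested.

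Mrps30 was again the member with the largest fall. Its log2 levels under Mbnl1 siRNA were 0.36, 0.61 and 0.79 lower than under control siRNA at 0, 2.5 and 5 h, and the fitted log2 difference was -0.59 ± 0.10 (adjusted p = 0.00139). Mrpl40, a large-subunit protein without a bacterial counterpart, read 11.56, 11.48 and 11.49 under Mbnl1 siRNA, against 11.89, 11.94 and 12.01 under control siRNA. The groups did not overlap, and the log2 difference was -0.44 ± 0.04 (adjusted p = 0.000103). Hira, a histone chaperone gene whose start faces that of Mrpl40 across 113 bases, had -0.58 (adjusted p = 0.000148). Beside other members that were lower, Ncapd2 (-0.57, beside Mrpl51) and Ska3 (-0.87, beside Mrpl57) were lower too. Tcp1 beside Mrpl18 (-0.03), Mitd1 beside Mrpl30 (-0.11), Fau beside Mrpl49 (0.09) and Zfp661 beside Mrps5 (-0.12) were not called. A link between neighbours was not tested.

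Mrpl30 read 9.05, 9.28 and 9.48 under Mbnl1 siRNA, against 9.48, 9.73 and 9.88 under control siRNA, a log2 difference of -0.42 ± 0.03 (adjusted p = 3.48e-05). Mrpl42 was lower by 0.38, 0.49 and 0.37 at 0, 2.5 and 5 h, a log2 difference of -0.42 ± 0.04 (adjusted p = 6.32e-05). Both genes stood lower in the Mbnl1 arm at each time and still rose between 0 and 5 h. Mrpl54 (-0.33 ± 0.04) and Mrpl49 (-0.23 ± 0.03) of the large subunit and Mrps5 (-0.32 ± 0.06) and Mrps35 (-0.30 ± 0.05) of the small subunit were the other falls among the 8 largest. The second probe set of Mrps5 gave -0.29.

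Mrps31, which declined with time, was higher under Mbnl1 siRNA by 0.21, 0.27 and 0.41 at 0, 2.5 and 5 h, a log2 difference of 0.30 ± 0.05 (adjusted p = 0.000972). The other rises among the 8 largest lay between 0.18 and 0.20. They were those of Mrps11, Mrps33 and Mrps23 of the small subunit and of Mrpl14, Mrpl28, Mrpl39 and Mrpl20 of the large subunit. Without the 5 h array of the control arm Mrpl14 (adjusted p = 0.0558), Mrps23 (adjusted p = 0.0769) and Mrpl20 (adjusted p = 0.0678) were not called, and Mrps23 was not called without the filter either (adjusted p = 0.0518). Chchd1 (-0.38 ± 0.05) and Ptcd3 (-0.16 ± 0.05), small-subunit proteins with other symbols, were lower under Mbnl1 siRNA. The related lists are set beside all genes tested, of which 24.0% were higher and 31.0% lower under Mbnl1 siRNA. Respiratory chain subunits had 21 of 74 higher and 1 lower, led by Ndufb3 (0.34 ± 0.06). Of 14 regulators of nuclear genes for mitochondria 2 were higher and 6 lower, and of 23 assembly and ribosomal RNA modification genes 2 were higher and 4 lower. Genes for mitochondrial transcription and RNA processing had 2 of 19 higher and 7 lower, led by Fastk (-1.12 ± 0.07) and Tfam (-0.51 ± 0.09), which packages mitochondrial DNA. Ppargc1a, the PGC-1 alpha coactivator gene, was higher by 1.44 ± 0.16 and Tfb1m, which methylates the small ribosomal RNA, was lower by -0.43 ± 0.07.

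Markers of other cell types also moved in the Mbnl1 arm. The summed intensity of the 5 macrophage and leukocyte markers was 921.5 to 1134.0 under Mbnl1 siRNA, against 527.4 to 605.5 under control siRNA, and Cd68 was the only one of them above the filter (log2 difference 1.15 ± 0.04, adjusted p = 8.52e-07). Ptprc, Csf1r, Adgre1 and Itgam lay below it on average. The 5 fibroblast markers summed to 3603.4 to 3774.0 under Mbnl1 siRNA, against 4144.4 to 4322.8 under control siRNA, and the 7 myoblast markers to 12646.0 to 13283.1, against 14342.7 to 15206.2. Such sums rest mostly on the brightest marker, which was Des in the myoblast list (median log2 13.09). Of the 6 myoblast markers above the filter 1 was called higher and 2 lower, and of 3 fibroblast markers 0 were higher and 2 lower. The adipocyte sums overlapped, at 842.3 to 907.3 under Mbnl1 siRNA against 880.5 to 909.2 under control siRNA. The part of all these markers in the members' differences was not tested.

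Under Cugbp1 siRNA few members were called. Compared with control siRNA 8 of 74 members were higher (10.8%) and 1 lower (1.4%), where 10.5% of all genes tested were higher and 8.67% lower, so the share of members called higher is close to that of all genes. The members' median log2 difference was 0.06, against 0.01 over all genes. In the array pairs of 0, 2.5 and 5 h, 68.9%, 78.4% and 85.1% of the members were higher (51, 58 and 63 of 74), against 45.3%, 52.3% and 59.2% of all genes. The all-gene median moved too over these pairs, at -0.01, 0.01 and 0.03. Mrps22 read 9.80, 9.61 and 9.32 under Cugbp1 siRNA, against 9.62, 9.35 and 8.92 under control siRNA, a log2 difference of 0.28 ± 0.05 (adjusted p = 0.00717). Mrps18a of the large subunit read 10.64, 10.77 and 10.80, against 10.51, 10.50 and 10.44, a log2 difference of 0.25 ± 0.05 (adjusted p = 0.0137). The pairs of both genes lay farther apart at 5 h than at 0 h.

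Mrps35 (0.23 ± 0.05), Mrpl47 (0.23 ± 0.05), Mrpl16 (0.22 ± 0.06), Mrpl38 (0.21 ± 0.06), Mrpl14 (0.18 ± 0.05) and Mrpl12 (0.17 ± 0.04) were the other members called higher. Mrpl12 forms the stalk of the large subunit. The second probe set of Mrpl47 gave -0.01. Mrpl33, a small large-subunit protein, was the member called lower (-0.14 ± 0.04, adjusted p = 0.0394). The count of members called higher depended on single arrays, since 1 was called without the 5 h array of the control arm or of the Cugbp1 arm, 2 without the 2.5 h array of either arm, and 2 without the intensity filter. In the related lists, Noa1, a GTPase of mitoribosome assembly, was higher by 0.28 ± 0.04, Tefm by 0.37 ± 0.04 and Ppargc1a by 1.10 ± 0.16. Markers of other cell types moved in this arm too. The 5 adipocyte markers summed to 1007.3 to 1106.0 under Cugbp1 siRNA, against 880.5 to 909.2 under control siRNA, and Lpl, the only one of them above the filter, had a log2 difference of 0.35 ± 0.04 (adjusted p = 0.00115). The macrophage and leukocyte markers summed to 594.2 to 671.9, against an overlapping 527.4 to 605.5, with Cd68 at 0.24 ± 0.04 (adjusted p = 0.00383). The fibroblast sums were lower, at 3988.8 to 4141.3 against 4144.4 to 4322.8, and of 3 such markers tested 1 was called higher and 1 lower. The myoblast sums overlapped, at 14218.4 to 15564.6 against 14342.7 to 15206.2, and of 6 such markers tested 1 was called higher and 1 lower. The part of the markers in the members' differences was not tested. Both knockdown comparisons share the control arrays.

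Set directly against each other, Mbnl1 siRNA gave lower levels than Cugbp1 siRNA for 24 of 74 members and higher levels for 5, where 33.4% of all genes tested were lower and 23.0% higher. The median log2 difference was -0.05, against -0.03 over all genes. The largest differences were those of Mrps30 (-0.82 ± 0.10, adjusted p = 0.000243), Mrps35 (-0.54 ± 0.05, adjusted p = 5.58e-05) and Mrps5 (-0.48 ± 0.06, adjusted p = 0.000259). Mrps35 read 8.59, 8.36 and 8.36 under Mbnl1 siRNA, against 9.05, 9.01 and 8.88 under Cugbp1 siRNA, with the control arm at 8.91, 8.74 and 8.58 between them. Mrpl40, Mrpl42, Mrpl30, Mrpl18 and Mrpl54 were lower by log2 differences of -0.45 to -0.34. The 5 members with higher levels were Mrps31 (0.20 ± 0.05), Mrpl52 (0.16 ± 0.04), Mrps23, Mrpl20 and Mrps33. Without the 5 h control array or the 2.5 h Cugbp1 array 2 were higher, and without the 2.5 h control array, the 5 h Cugbp1 array, or the 2.5 h or 5 h Mbnl1 array 3 were. Mrps23, Mrpl20 and Mrps33 each lost their call in several of these fits.

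**Figure D4:**
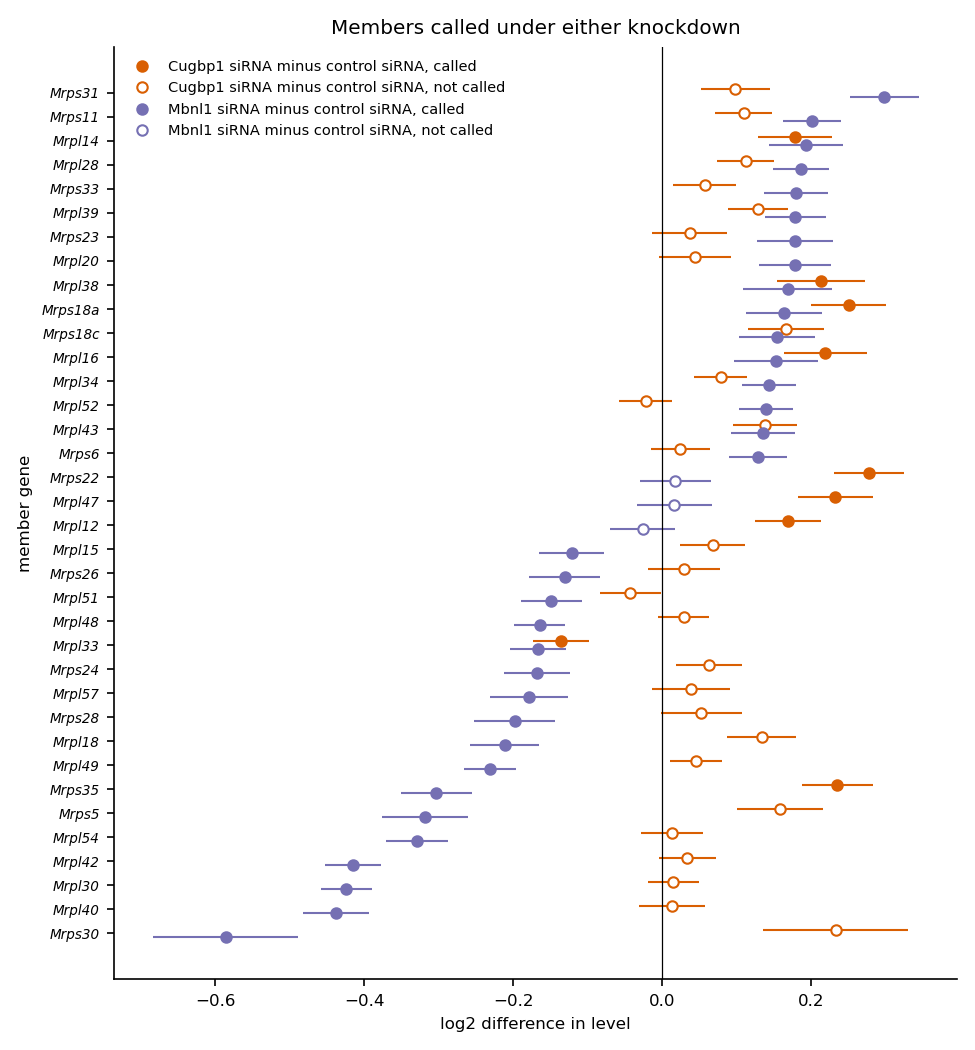
Log2 difference in level for the 36 members called under either knockdown, Cugbp1 siRNA minus control siRNA in orange and Mbnl1 siRNA minus control siRNA in purple, with the SE of the fit as bars (n = 3 arrays per siRNA) and filled points for calls. The purple points of Mrps30, Mrpl40 and Mrpl30 lie at -0.42 or lower, where the orange points are not called, and 6 members are called under both.

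No member passed the threshold for a change in its rate of decline under either knockdown. The difference in hourly slope from the control arm was called for 0 of 74 members under both knockdowns, where limma called 0.0% of all genes under Cugbp1 siRNA and 0.0203% under Mbnl1 siRNA. At an unadjusted p under 0.05 there were 10 members (13.5%) under Cugbp1 siRNA and 11 (14.9%) under Mbnl1 siRNA, close to the 11.4% and 13.8% of all genes. A fit with a trended, robust prior also called 0 members. Slope differences were ranked by moderated t, the difference over its SE. The highest under Cugbp1 siRNA were those of Mrps34, at 0.10 ± 0.02 log2 units per h (adjusted p = 0.32), and Mrps9 (0.06 ± 0.02, adjusted p = 0.342). Mrps34 read 8.59 at 5 h under Cugbp1 siRNA and 8.17 under control siRNA, against 8.69 and 8.78 at 0 h. The lowest by moderated t were those of Mrps2 (-0.05 ± 0.02, adjusted p = 0.403) and Mrpl23 (-0.03 ± 0.02, adjusted p = 0.482).

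Under Mbnl1 siRNA the lowest slope differences were those of Mrps30, at -0.09 ± 0.02 per h (adjusted p = 0.118), and Mrps21 (-0.08 ± 0.03, adjusted p = 0.262). The highest were those of Mrpl50 (0.07 ± 0.02, adjusted p = 0.201) and Mrps34 (0.06 ± 0.02, adjusted p = 0.208). Mrps30 had lost 1.19 log2 units by 5 h in the Mbnl1 arm and 0.76 in the control arm. In simulated data 1 of 100 slope differences of 0.1 per h and 79 of 100 of 0.2 per h were recovered for Mbnl1 siRNA, and 3 and 83 of 100 for Cugbp1 siRNA. Slope differences of the size seen in the members were mostly not detectable with these arrays.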

How the data were processed

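RNA of C2C12 cells was measured on 9 Affymetrix whole-transcript arrays, 1 per siRNA and time. The deposited values are linear intensities that the authors made with RMA in Affymetrix Expression Console, per the submitters' processing notes (versions not given in the sources used here). RMA corrects background, sets all arrays to 1 distribution and summarises probes, so absolute loss of RNA is removed. Here log2 was taken. Of 35556 probe sets 21789 had 1 symbol, 1621 several and 12146 none; only the first kind was used, with the brightest probe set per gene. Genes with a mean log2 of 7.385 or more were kept (9864). limma 3.58.1 in R 4.3.3 fitted siRNA and time as additive factors (4 residual degrees of freedom), and a second model added a line in hours per knockdown (2). Adjusted p-values are Benjamini-Hochberg over all 9864 genes. Precision is limited by the number of arrays.

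In simulated data 52 of 100 changes of 0.25 and 96 of 100 of 0.5 were recovered at 5 h, with 11 unchanged genes called. Only these genes of 9864 were changed there, whereas in the data 35.6% of genes were called higher and 32.8% lower. The p needed for a call depends on that share, so these rates do not give the sensitivity of the 5 h comparison. The text names, per comparison, members among the 8 largest called rises and falls that went the same way in all 3 array pairs. It also names members called against the main direction (8 at most) and, for slopes, the 2 highest and 2 lowest moderated t. Members with several probe sets, the siRNA targets and the 2 largest called changes of each list are named too. Genes named outside this rule (the neighbouring genes, the promoters printed, members listed by class, markers and a few list genes) were picked after their values were seen. Alternatives were equal cytosolic ribosomal protein medians, no intensity filter, the mean of a gene's probe sets, a trended and robust prior, and leaving out each array. Members and gene lists were chosen with earlier results of these data known. Promoters came from RefSeq and were matched by gene ID.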

Additional observations from a re-analysis of the deposited data

How the results depend on the processing

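With equal cytosolic ribosomal protein medians, 6 members were higher and 44 lower at 5 h (median -0.168), 3 higher and 19 lower at 2.5 h (median -0.068), 0 lower under Cugbp1 siRNA, and 3 higher under Mbnl1 than under Cugbp1 siRNA. Without the intensity filter, 2 members were higher and 0 lower under Cugbp1 siRNA, 9 higher under Mbnl1 siRNA than under control siRNA, and 2 higher under Mbnl1 than under Cugbp1 siRNA. The mean of a gene's probe sets gave 2 members lower under Cugbp1 siRNA, and a trended, robust prior gave 13 higher and 0 lower there. The cause was not tested. Leaving out 1 array at a time gave 11 to 22 members higher and 5 to 10 lower at 2.5 h, 1 to 11 higher and 0 to 1 lower under Cugbp1 siRNA, and 6 to 15 higher under Mbnl1 siRNA (median -0.010 to 0.018). Mbnl1 against Cugbp1 siRNA gave 2 to 5 higher (median -0.078 to -0.045). At 2.5 h the lowest counts came without the 2.5 h array of the control arm (11 higher) and of the Cugbp1 arm (5 lower). Under Mbnl1 siRNA 10 members were higher without its 2.5 h array, 8 without its 5 h array, 9 without the control array of 2.5 h and 6 without that of 5 h. Under Cugbp1 siRNA 5 were higher without the Mbnl1 array of 2.5 h. Each fit already blocks on the other factor, so arrays are compared within an arm or within a time. A block on replicate number could not be added, since each siRNA and time had 1 array. The number of arrays limits the precision, and slopes rest on 3 points per arm.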

Other observations

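Some deposited values were the same on several arrays. Mrpl3 had 1 value on 6 of the 9 arrays. Among tested members, 7 of 74 had 1 value on 3 or more arrays (9.46%), against 569 of 9864 genes (5.77%).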
